A study of Mus musculus with 24 samples.

Results

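The 40 genes described here encode the core machinery of macroautophagy and the receptors that bring cargo to it, and were measured in control and Tsc2-deleted mouse sensory neurons. They were listed by name, from the initiation complex to the cargo receptors, by a rule that uses no measured value, although earlier results of these data were known when the list was made. All 40 were found among the 47643 gene identifiers of the count files, and all 40 passed the filter on low counts that left 17178 genes for testing.

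Autophagy encloses cytoplasm in a double membrane, the autophagosome, and delivers it to the lysosome for breakdown. The ULK kinase complex starts the process, the class III PI3-kinase marks the growing membrane with the lipid PI3P, and effectors of PI3P bring in lipid and the conjugation enzymes. These enzymes attach small ubiquitin-like proteins of the ATG8 family (the LC3 and GABARAP proteins) to the membrane, where cargo receptors such as p62 bind both an ATG8 protein and their cargo. The kinase complex mTORC1 inhibits autophagy, mainly by phosphorylating ULK1 and ATG13 and by keeping the transcription factors TFEB and TFE3 out of the nucleus. Tsc2 is part of the complex that restrains mTORC1. Neurons are long-lived cells with long axons and depend on autophagy for the turnover of proteins and mitochondria.

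RNA-seq compared GFP-positive neurons sorted from L4 dorsal root ganglia of control mice (Tsc2 flox/+) with those of Nav-Tsc2 mice (Tsc2 flox/null), all of which also carried Nav1.8-Cre and the reporter Rosa26-ZsGreen, to learn how deletion of Tsc2 alters gene expression in these neurons. Each genotype had 4 mice (2 males, replicates 1 and 2, and 2 females, replicates 3 and 4), aged 8 to 9 weeks on a mixed C57BL/6 and AJ background, and 3 libraries of 100 cells were made from each mouse. All mice had a sciatic nerve crush 3 days earlier, and the ganglia came from the opposite side. The Nav1.8-Cre driver is not restricted to C-nociceptors, since part of the myelinated sensory neurons express it too, control neurons keep 1 intact Tsc2 allele, and the null allele of Nav-Tsc2 mice is carried by every cell of the animal.

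Gene counts per library ranged from 12210899 to 28641787 in controls and from 8339220 to 34228180 in Nav-Tsc2, and the mouse sums from 47959617 to 61290435. Tsc2 itself was lower in every Nav-Tsc2 mouse (20.9 ± 5.18 CPM in controls and 8.87 ± 1.52 in Nav-Tsc2, SD, n = 4 each, where CPM is the read count scaled to the TMM-normalized library size). The nociceptor channel Scn10a was abundant in all mice (509.7 to 791 CPM in controls and 577 to 658 in Nav-Tsc2). The peptidergic marker Calca was lower in Nav-Tsc2, and within controls it was higher in both males (13465 and 14634) than in both females (6039 and 6511). The summed level of 14 glial markers was 2992 to 3122 in controls and 1979 to 2561 in Nav-Tsc2, where 1 of 13 tested, S100b, was called lower. Endothelial markers summed to 0.326 to 1.85 in controls and 7.73 to 20.1 in Nav-Tsc2, with Flt1, Kdr and Ly6c1 called higher but Cdh5, Cldn5 and Pecam1 near 0. Macrophage markers summed to 2.80 to 8.21 and 8.62 to 23.7, with 1 of 5 tested (Cx3cr1) called higher. Csf1r and Cd68 were not called but also lay above all controls in every Nav-Tsc2 mouse. Aif1 and Lyz2 overlapped between the genotypes, and Adgre1, C1qa and Ptprc were near 0. None of 6 fibroblast markers was called (73.1 to 236 and 121 to 196), nor was any of 3 tested red blood cell markers (1.63 to 2.80 and 0.473 to 0.672). The part of these cells, and of the mix of sorted neurons, in the results that follow was not tested. In sorted pools, fewer cells of a type and less RNA per cell cannot be told apart.

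Of the 40 autophagy genes, 10 differed between the genotypes (25%, against 17.1% of all genes tested) and 30 were not called. The 3 that fell were Pik3c3, Map1lc3a and Bnip3, and the 7 that rose were Sqstm1, Optn, Calcoco1, Atg2a, Atg3, Vps18 and Bnip3l. A gene was called at an adjusted p under 0.05 (edgeR quasi-likelihood test on the counts of each mouse, Benjamini-Hochberg over all genes tested) and a log2 fold change past 0.5 in either direction. The members called lower were 7.5% of the 40, against 8% of all genes tested (1374 of 17178), and those called higher were 17.5%, against 9.12% (1567). Without control replicate 3, 5 members were called lower, Atg101 and Atg4c in addition. Some other fits also called Atg4c, Atg10 or Atg9a lower. The median log2 fold change over the members was 0.03 (range -0.88 to 1.18), beside 0.01 over all genes, with 18 members below 0 and 22 above. The 4 Nav-Tsc2 mice lay wholly below the 4 controls for 9 members (22.5%, against 12.3% of all genes) and wholly above them for 10 (25%, against 14.6%).

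**Figure D1:**
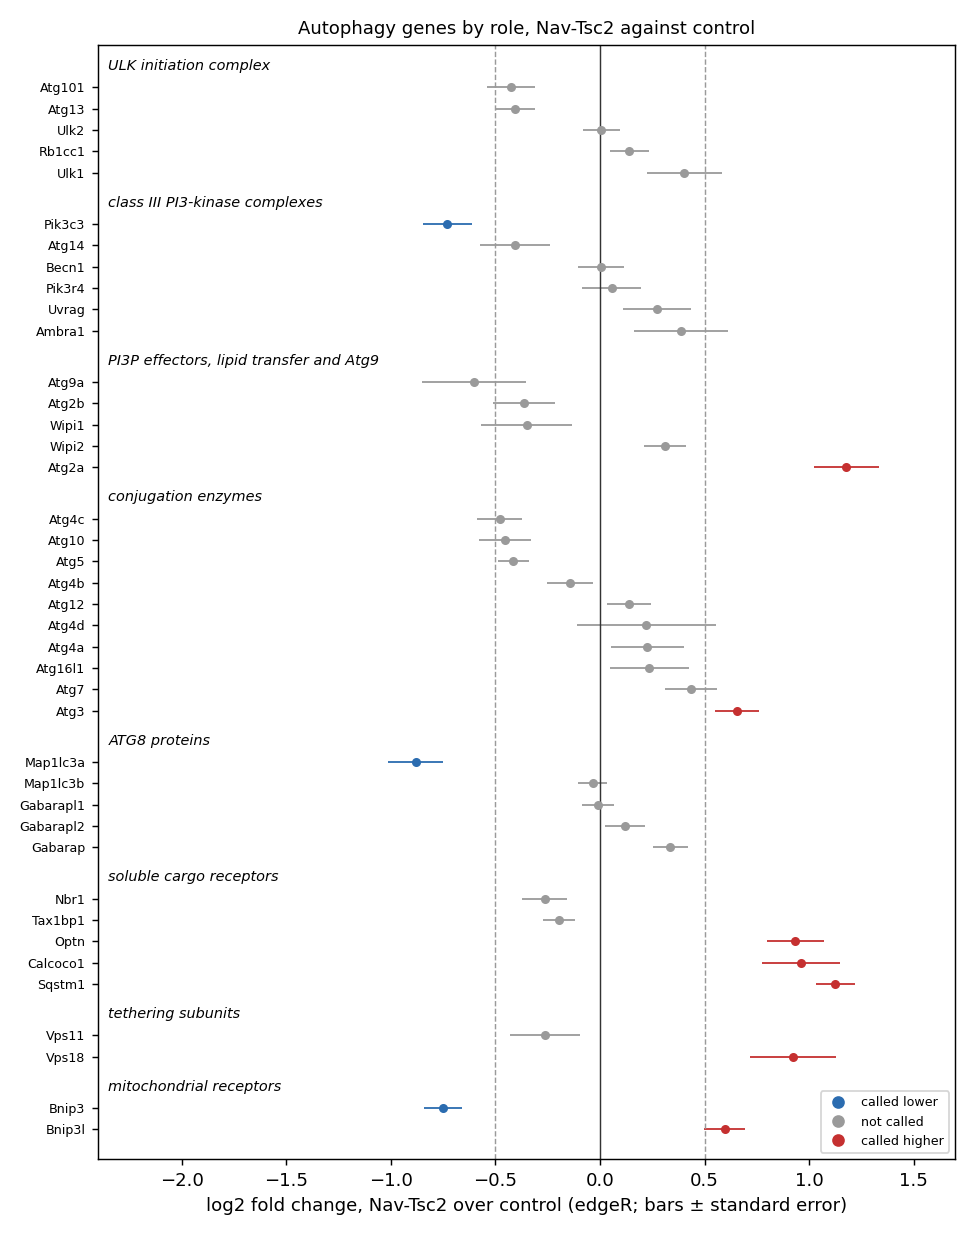
Log2 fold change (Nav-Tsc2 over control, horizontal axis, edgeR, bars ± SE, 4 mice per genotype) of each of the 40 autophagy genes, grouped by role from initiation (top) to mitochondrial receptors (bottom). Dashed lines mark 0.5 and -0.5, blue points the 3 genes called lower, red points the 7 called higher and grey points the 30 not called, and 3 of the 5 soluble cargo receptors lie near 1.

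Calls are given by role beside the 8% lower and 9.12% higher over all genes, and differences between roles were not tested. Of the 5 soluble cargo receptors 3 rose, with a median of 0.93, and their summed level was 777 to 872 CPM in controls and 1189 to 1400 in Nav-Tsc2. None of the 5 ULK complex genes was called (median 0.01), and among the 10 conjugation enzymes 1 was called, higher (median 0.18). The class III PI3-kinase genes included 1 of 6 called lower (median 0.03) and the group of PI3P effectors, lipid transfer proteins and Atg9a 1 of 5 called higher (median -0.35). Among the 5 ATG8 genes 1 was called, lower (median -0.01), and the mitochondrial receptors Bnip3 and Bnip3l were called in opposite directions. The summed level of all 40 genes was 6218 to 6662 CPM in controls and 6397 to 6596 in Nav-Tsc2, which overlap.

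Among the soluble receptors, Sqstm1 encodes p62, which binds ubiquitinated cargo, forms condensates with it and is itself degraded by autophagy. Its level was 358, 377, 435 and 360 CPM in control replicates 1 to 4 and 835, 928, 795 and 782 in Nav-Tsc2 replicates 1 to 4. Every Nav-Tsc2 mouse lay well above every control, and the adjusted p was the smallest of the 40 genes. The log2 fold change was 1.13 ± 0.0921 (SE, n = 4 each, edgeR adjusted p = 8.16e-05), or 2.18-fold. Over the 24 libraries the controls spanned 284 to 551 CPM and the Nav-Tsc2 libraries 699 to 1060, with no overlap. In the annotation 17.3% of the exon bases of Sqstm1 (GRCm38, chromosome 11, 50199366 to 50210827, minus strand) overlap Mrnip on the other strand. Mrnip went the other way, from 21.5 ± 4.49 to 9.65 ± 1.86 CPM (log2 fold change -1.15, edgeR adjusted p = 0.00407).

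Optn encodes optineurin, a receptor for ubiquitinated mitochondria and bacteria that is activated by the kinase TBK1. Control mice had 43.3, 38.6, 36.6 and 45.0 CPM of Optn and Nav-Tsc2 mice 86.6, 87.2, 78.7 and 60.1. The groups did not overlap, although the fourth Nav-Tsc2 mouse lay closer to the controls than the other 3. Optn rose by 0.93 ± 0.135 on the log2 scale (edgeR adjusted p = 0.00139), while its libraries, at 19.5 to 67.1 and 46.1 to 98.5 CPM, overlapped. Calcoco1, a relative of NDP52 that acts as a receptor for the endoplasmic reticulum and the Golgi, had 21.7, 14.1, 20.9 and 14.1 CPM in controls and 38.5, 38.5, 29.0 and 31.9 in Nav-Tsc2. It rose by 0.96 ± 0.186 (edgeR adjusted p = 0.00614), and even the lowest Nav-Tsc2 library (27.9 CPM) lay above the highest control library (27.5 CPM).

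The other 2 soluble receptors were not called. Nbr1, a receptor related to p62 that works with it in forming aggregates, had 74.7, 99.2, 82.4 and 80.3 CPM in controls and 71.0, 75.8, 63.4 and 70.1 in Nav-Tsc2 (log2 fold change -0.26 ± 0.107, edgeR adjusted p = 0.113). The genotypes overlapped in 1 place, since the second Nav-Tsc2 mouse exceeded the first control. Tax1bp1, a receptor for ubiquitinated aggregates, had 310, 320, 297 and 277 CPM in controls and 261, 271, 274 and 245 in Nav-Tsc2. All 4 Nav-Tsc2 mice were below all 4 controls, but by little, and the gene was not called (-0.20 ± 0.0768, edgeR adjusted p = 0.102). The ratio of Sqstm1 to Nbr1 CPM was 3.81 to 5.28 in controls and 11.2 to 12.5 in Nav-Tsc2, and that of Sqstm1 to Tax1bp1 was 1.16 to 1.46 and 2.90 to 3.42. On a scale of CPM per kilobase of exon, Sqstm1 made up 66.8% ± 2.30 of the 5 receptors in controls and 79.7% ± 0.796 in Nav-Tsc2, and Tax1bp1 went from 17.7% ± 1.32 to 8.45% ± 0.534 (SD, n = 4 each). Optn (6.44% ± 0.982 and 6.65% ± 0.778) and Calcoco1 (1.81% ± 0.409 and 1.92% ± 0.181) kept similar shares, and Nbr1 went from 7.20% ± 0.873 to 3.27% ± 0.188. These shares depend on the length used. In controls Sqstm1 had 114 ± 10.7 CPM per kilobase and Tax1bp1 30.2 ± 1.85 with the union of all exons. With the length of the principal transcript, a choice added after the data were seen, they had 188 ± 17.7 and 91.7 ± 5.62.

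**Figure D2:**
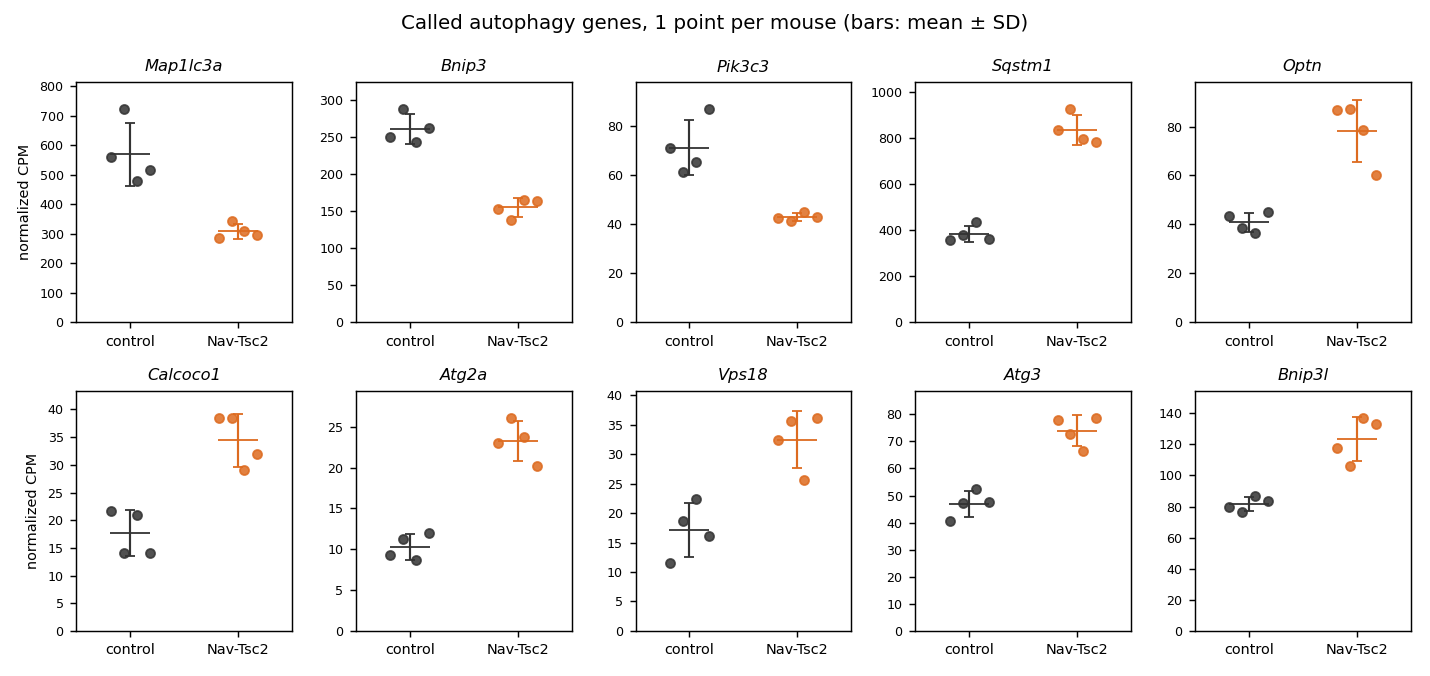
Level of each of the 10 called autophagy genes (vertical axis, TMM-normalized CPM from 0) in the 4 control mice (dark points) and 4 Nav-Tsc2 mice (orange points), with the mean ± SD of each genotype. In all 10 panels the points of the genotypes do not overlap, with Map1lc3a, Bnip3 and Pik3c3 lower and the other 7 higher in Nav-Tsc2.

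The mitochondrial receptors are membrane proteins of the outer mitochondrial membrane that bind ATG8 proteins directly, and both are known targets of the hypoxia factor HIF-1. Bnip3 was the more abundant, with 250, 288, 243 and 263 CPM in controls and 153, 138, 165 and 164 in Nav-Tsc2. It fell by 0.75 on the log2 scale (SE 0.0895, edgeR adjusted p = 0.000498). Bnip3l, which encodes NIX, known for clearing mitochondria from maturing red blood cells, had 79.7, 76.7, 86.9 and 83.5 CPM in controls and 118, 106, 137 and 133 in Nav-Tsc2. It rose by 0.60 ± 0.0989 (edgeR adjusted p = 0.00282). Neither gene overlapped between the genotypes by mouse, and both overlapped by library, Bnip3 at 180 to 310 and 109 to 214 CPM and Bnip3l at 63.7 to 112 and 105 to 144 CPM. The ratio of Bnip3l to Bnip3 CPM was therefore 0.266 to 0.357 in controls and 0.768 to 0.830 in Nav-Tsc2. The summed level of the pair was 330 to 365 CPM in controls and 244 to 302 in Nav-Tsc2.

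Part of the sequence of both genes also occurs elsewhere. Of all 50-base stretches, the length of the reads, 36.9% in Bnip3 and 20.8% in Bnip3l also lie in an annotated gene at another locus. With the gene that overlaps Bnip3 included, its share was 47.2%. Reads that map to several places were left out of the counts. Bnip3l-ps, the pseudogene that shares these stretches with Bnip3l, had 1.12 ± 0.0759 CPM in controls and 1.52 ± 0.335 in Nav-Tsc2. In addition, 22.3% of the exon bases of Bnip3 overlap a gene on the other strand. The levels of both genes are therefore uncertain, as is the ratio between them.

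**Figure D3:**
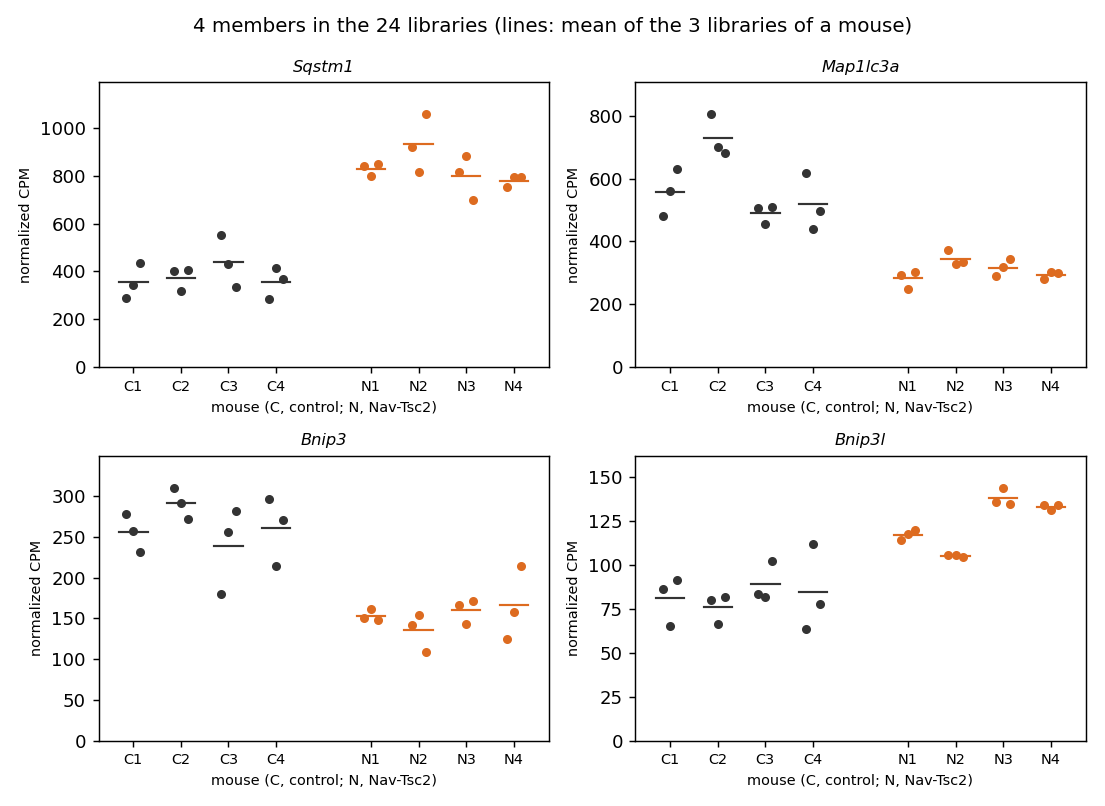
Level (vertical axis, TMM-normalized CPM from 0) of Sqstm1, Map1lc3a, Bnip3 and Bnip3l in each of the 24 libraries, with 3 points for each mouse (horizontal axis, C1 to C4 control, N1 to N4 Nav-Tsc2) and a line at their mean. Libraries of the genotypes do not overlap for Sqstm1 (284 to 551 and 699 to 1060) or Map1lc3a (440 to 807 and 249 to 374), and do for Bnip3 and Bnip3l.

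Of the 5 ATG8 genes, Map1lc3a was the one that fell. It encodes LC3A, and its level was 559, 723, 479 and 514 CPM in controls and 286, 344, 310 and 295 in Nav-Tsc2. The second control mouse was the highest, and the lowest control was still well above the highest Nav-Tsc2 mouse. Map1lc3a fell by 0.88 on the log2 scale (SE 0.130, n = 4 each, edgeR adjusted p = 0.00158), to 0.543 of the control level. No exon of the gene (GRCm38, chromosome 2, 155276297 to 155278073, plus strand) overlaps another gene.

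Map1lc3b encodes LC3B, the form most used as a marker of autophagosomes, and was measured at 2245, 2371, 2117 and 2200 CPM in controls and 2102, 2057, 2325 and 2233 in Nav-Tsc2. The mice of the 2 genotypes were interleaved, and the log2 fold change was -0.04 ± 0.0708 (edgeR adjusted p = 0.779). Gabarap, named for its binding to GABA type A receptors, had 436, 492, 498 and 412 CPM in controls and 563, 609, 578 and 571 in Nav-Tsc2. All Nav-Tsc2 mice were above all controls, at a log2 fold change of 0.34 ± 0.0824 (edgeR adjusted p = 0.0182) that did not reach the fold threshold. Its relative Gabarapl1 had 408, 418, 458 and 443 CPM in controls and 393, 451, 426 and 448 in Nav-Tsc2 (-0.01 ± 0.0766, edgeR adjusted p = 0.962). Gabarapl2, also known as GATE-16, had 73.7, 66.7, 77.6 and 68.1 CPM in controls and 71.3, 73.4, 86.6 and 80.0 in Nav-Tsc2 (0.12 ± 0.0955, edgeR adjusted p = 0.421). Both overlapped between the genotypes.

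The make-up of the family therefore differed between the genotypes. Per kilobase of exon, Map1lc3a was 37.6% ± 3.98 of the ATG8 level in controls and 23.5% ± 1.27 in Nav-Tsc2, while Gabarap was 19.6% ± 1.72 and 28.3% ± 0.661 (SD, n = 4 each). The ratio of Map1lc3a to Gabarap CPM was 0.961 to 1.47 in controls and 0.507 to 0.565 in Nav-Tsc2. Which gene of the family was most abundant depended on the transcript length used. With the union of all exons, Map1lc3a led in controls (481 ± 91.3 CPM per kilobase) ahead of Map1lc3b (297 ± 14.1), Gabarap (249 ± 22.9), Gabarapl1 (215 ± 11.4) and Gabarapl2 (30.8 ± 2.17), where Gabarap and Gabarapl1 were the neighbours whose mice overlapped. In Nav-Tsc2 the order was Gabarap (315 ± 10.8), Map1lc3b (290 ± 16.3), Map1lc3a (261 ± 21.7), Gabarapl1 (213 ± 13.2) and Gabarapl2 (33.5 ± 2.98), where the mice of Gabarap and Map1lc3b overlapped, as did those of Map1lc3b and Map1lc3a. With the length of the principal transcript, a choice added after the data were seen, Map1lc3b led in both genotypes (882 ± 41.9 and 861 ± 48.3 CPM per kilobase), and Map1lc3a was 25.3% of the family in controls and 15.0% in Nav-Tsc2.

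**Figure D4:**
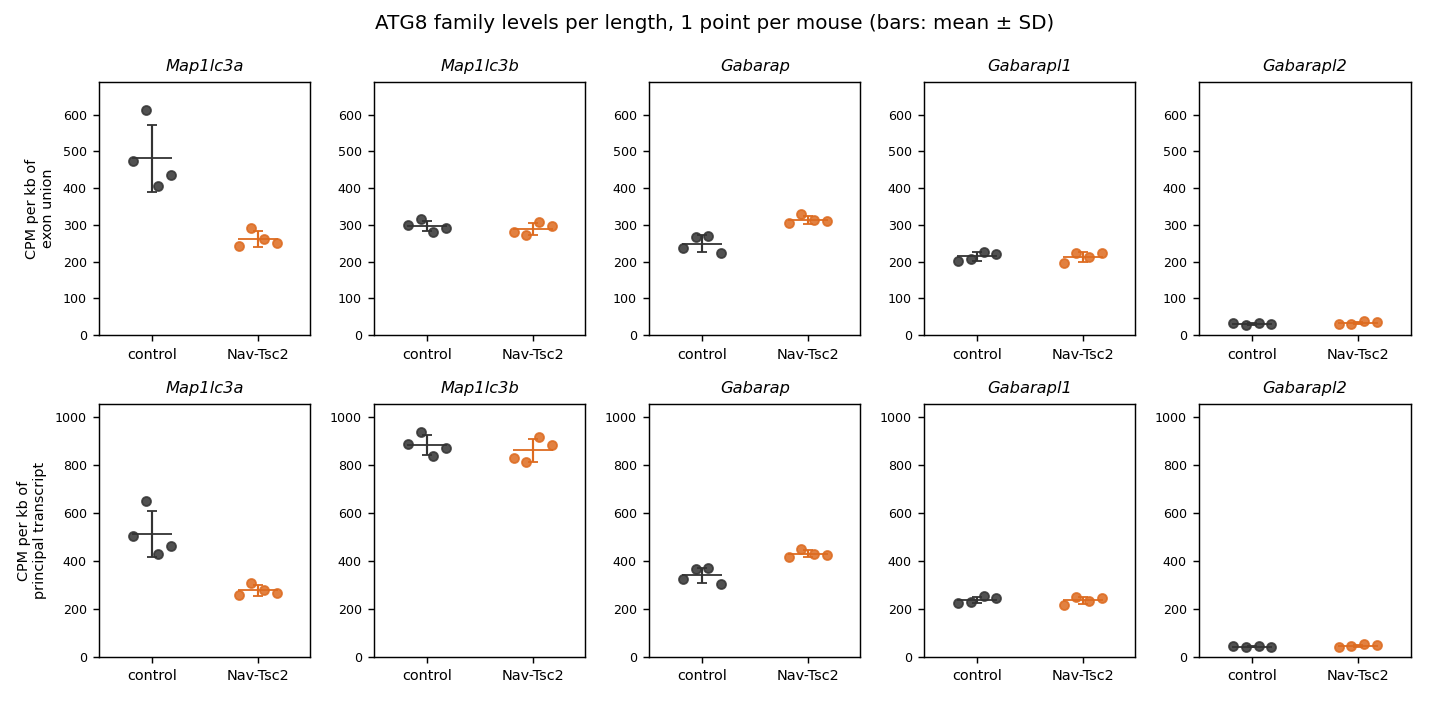
Levels of the 5 ATG8 genes (vertical axes, CPM per kilobase from 0) in each control mouse (dark) and Nav-Tsc2 mouse (orange), with mean ± SD, computed with the union of all exons (upper row) and with the principal transcript (lower row). Map1lc3a is lower in Nav-Tsc2 in both rows, whereas its rank against Map1lc3b depends on the length used.

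The conjugation enzymes work in 2 ubiquitin-like pathways: Atg7 activates both Atg12 and the ATG8 proteins, Atg10 and Atg3 carry them, and the Atg12-Atg5 complex with Atg16l1 places ATG8 proteins on the membrane, while the Atg4 proteases process and remove them. Atg3, the carrier of ATG8 proteins, had 40.8, 47.4, 52.5 and 47.5 CPM in controls and 77.9, 72.8, 66.5 and 78.7 in Nav-Tsc2. All Nav-Tsc2 mice were above all controls, and Atg3 rose by 0.65 ± 0.105 on the log2 scale (edgeR adjusted p = 0.00238). Atg5 had the highest level per length of the enzymes (60.3 ± 2.18 CPM per kilobase in controls) and was measured at 141, 144, 135 and 147 CPM in controls and 110, 102, 112 and 102 in Nav-Tsc2. These groups did not overlap either, and the log2 fold change of -0.41 ± 0.0739 (edgeR adjusted p = 0.00405) was short of the fold threshold.

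A further 3 enzymes passed the adjusted p but not the fold threshold. Atg10, the carrier of Atg12, went from 55.7 ± 6.79 to 40.7 ± 4.83 CPM (-0.45, edgeR adjusted p = 0.0292), and Atg4c from 44.9 ± 2.27 to 32.2 ± 3.61 (-0.48, adjusted p = 0.0134). Atg7 went from 39.8 ± 6.24 to 53.7 ± 2.87 CPM (0.44, adjusted p = 0.0339). In every Nav-Tsc2 mouse Atg5, Atg10 and Atg4c lay below all controls, and Atg3 and Atg7 above them. The other 5 enzymes (Atg4a, Atg4b, Atg4d, Atg12 and Atg16l1) overlapped between the genotypes, with log2 fold changes of -0.14 to 0.24. Atg4d was the least abundant member per length (0.874 ± 0.412 CPM per kilobase in controls), and 51.2% of the 50-base stretches of Atg4a also lie in other genes.

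Promoter sequences were searched for 3 motifs tied to the control of autophagy genes: CACGTG, the E-box bound by TFEB, TFE3 and many other factors, TCACGTGA, a longer form favoured by TFEB that contains the E-box, and GTAAACA, bound by forkhead factors. RefSeq promoters of build GRCm38.p6, from 250 bases before to 50 after the start, were at hand for 32 of the 40 members, and both strands were read. CACGTG was in 15.6% of these members (5 of 32: Atg14, Atg3, Atg5, Atg7 and Bnip3), against 8.09% of all genes with a promoter. The Atg7 window (chromosome 6, 114670846 to 114671145) lies inside the gene as annotated (114643097 to 114860614), at a later start than the first. That of Atg14 also lies inside its annotated gene. TCACGTGA was in 1 (Atg3), against 1.13% of all genes, and GTAAACA in 0, against 4.05%. The 4 stretches that lie wholly before the RefSeq start are shown, with capitals marking the motif. They were chosen because 3 belong to conjugation enzymes that passed the adjusted p and the fourth to Bnip3. The Atg3 stretch ends at 45158794, past the annotated start of the gene (45158785), and both its motifs lie before that start. Of the 4 genes, Atg3 was called higher and Bnip3 lower.
Atg3 (chr16:45158705-45158794, plus strand, with CACGTG and then TCACGTGA): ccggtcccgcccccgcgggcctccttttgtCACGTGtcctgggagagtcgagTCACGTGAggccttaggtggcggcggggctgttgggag
Atg5 (chr10:44268295-44268338, plus strand): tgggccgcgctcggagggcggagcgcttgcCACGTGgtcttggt
Atg7 (chr6:114670934-114670999, plus strand): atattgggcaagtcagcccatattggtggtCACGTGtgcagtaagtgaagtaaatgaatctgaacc
Bnip3 (chr7:138909579-138909644, minus strand): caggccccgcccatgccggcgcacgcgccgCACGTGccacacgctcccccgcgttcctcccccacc

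Of the ULK initiation complex, the 2 kinases and Rb1cc1 (FIP200, the scaffold) overlapped between the genotypes. Ulk1 went from 22.9 ± 4.81 to 30.3 ± 5.10 CPM (log2 fold change 0.40, edgeR adjusted p = 0.147), and Ulk2 (0.01) and Rb1cc1 (0.14) were closer to 0. Atg101, a stabilising subunit with the highest level per length of the complex, had 64.4, 61.2, 53.9 and 76.2 CPM in controls and 43.8, 50.3, 49.0 and 47.3 in Nav-Tsc2. Its partner Atg13, the subunit that links the kinase to the scaffold, went from 52.3 ± 4.14 to 39.5 ± 1.49 CPM. Both were lower in every Nav-Tsc2 mouse than in any control, at log2 fold changes of -0.43 ± 0.117 (Atg101, edgeR adjusted p = 0.0292) and -0.40 ± 0.0939 (Atg13, adjusted p = 0.0144) that missed the fold threshold.

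In the class III PI3-kinase complexes the called gene was the catalytic subunit. Pik3c3, which encodes VPS34, had 71.2, 61.3, 65.3 and 87.0 CPM in controls and 42.6, 41.3, 44.8 and 42.9 in Nav-Tsc2. The Nav-Tsc2 mice lay close together and below all controls, and Pik3c3 fell by 0.73 on the log2 scale (SE 0.118, edgeR adjusted p = 0.00245). The regulatory subunits Becn1 (0.01 ± 0.111) and Pik3r4 (0.06 ± 0.140) gave fold changes near 0 and adjusted p of 0.979 and 0.824. Atg14, which directs the kinase to autophagosomes, went from 16.6 ± 2.16 to 12.5 ± 1.87 CPM (-0.41, edgeR adjusted p = 0.117). Uvrag, which takes its place in the endosomal complex, went from 9.68 ± 0.888 to 11.7 ± 1.46 (0.27, adjusted p = 0.274), and the Beclin regulator Ambra1 from 14.2 ± 3.91 to 18.6 ± 3.63 (0.39, adjusted p = 0.261). All 5 overlapped between the genotypes, and 43.9% of the exon bases of Becn1 overlap Cntd1 on the other strand.

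Downstream of PI3P, the paralogs Atg2a and Atg2b encode proteins that move lipid into the growing membrane. Atg2a had 9.24, 11.2, 8.65 and 11.9 CPM in controls and 23.0, 26.1, 23.7 and 20.1 in Nav-Tsc2. It rose by 1.18 ± 0.157 on the log2 scale (edgeR adjusted p = 0.000916), or 2.26-fold, the largest fold change of the 40 genes. Atg2b, the more abundant paralog, had 94.8, 98.9, 66.1 and 91.0 CPM in controls and 80.3, 71.4, 60.3 and 60.6 in Nav-Tsc2 (-0.36 ± 0.147, edgeR adjusted p = 0.112). Its groups overlapped because the third control mouse lay low. The ratio of Atg2a to Atg2b CPM was 0.0975 to 0.131 in controls and 0.286 to 0.394 in Nav-Tsc2, so that Atg2b remained the more abundant in every mouse.

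Of the PI3P-binding WIPI proteins, Wipi2, which recruits Atg16l1, went from 55.7 ± 6.08 to 69.0 ± 3.40 CPM without overlap between the mice (log2 fold change 0.31 ± 0.101, edgeR adjusted p = 0.0561). Wipi1 went from 10.2 ± 2.19 to 7.98 ± 1.39 CPM (-0.35, adjusted p = 0.297). Atg9a, the lipid scramblase on the vesicles that seed the membrane, went from 6.88 ± 1.21 to 4.53 ± 1.06 CPM (-0.60, adjusted p = 0.119), past the fold threshold but not the adjusted p, with 1 Nav-Tsc2 mouse (5.96 CPM) above the lowest control (5.91). In the annotation, 32.6% of its exon bases overlap other genes, Ankzf1 on the other strand and Gm29253.

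Vps11 and Vps18 encode core subunits of the tethering complexes HOPS and CORVET, which bring late and early endosomal membranes together before fusion. Vps18 had 11.5, 18.6, 22.3 and 16.0 CPM in controls and 32.3, 35.7, 25.7 and 36.2 in Nav-Tsc2. It rose by 0.92 ± 0.207 (edgeR adjusted p = 0.0121), with the third mouse of each genotype the closest pair. Vps11 had 69.5, 41.7, 58.5 and 71.1 CPM in controls and 56.2, 52.8, 43.7 and 48.0 in Nav-Tsc2, which overlap (-0.26 ± 0.168, adjusted p = 0.311). Per kilobase Vps11 was the higher in both genotypes (12.2 ± 2.74 and 3.58 ± 0.952 in controls, 10.2 ± 1.10 and 6.79 ± 1.01 in Nav-Tsc2).

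The members were well covered by reads. All 40 had counts in each of the 24 libraries, and 36 lay above the median level per length of the genes tested, with 11 in the top 10%. The spread between single libraries of 1 mouse had a median SD of 0.25 on the log2 scale over the members. That between mice of 1 genotype, taken on the mean of the 3 libraries of each mouse, was 0.17. The first value exceeded the second for 37 of the 40. Averaging 3 libraries lowers the second value by itself, so the comparison cannot tell which source of spread is larger. For 4 of the 10 called genes (Sqstm1, Map1lc3a, Calcoco1 and Atg2a) the 12 libraries of each genotype did not overlap, and for 6 they did. The share over all genes was not computed. Libraries of 1 mouse are not independent replicates and these genes were already called, so this count adds no evidence of a difference.

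The difference between genotypes was compared between the sexes, with 2 mice of each sex per genotype. No member had a genotype by sex interaction at an adjusted p under 0.05 (edgeR; 0 of 40, against 0.00582% of all genes, which is 1 gene), and 1 member, Atg4d, had an unadjusted p under 0.05. DESeq2 gave 0 members at an adjusted p under 0.05, where 376 genes of the whole table passed, and 3 members unadjusted. Without the filter on low counts, edgeR gave 0 members, where 618 genes passed, and 3 unadjusted. All 10 called genes moved in the same direction in males and in females. For Sqstm1 the log2 ratio of the means was 1.26 in males and 0.99 in females, for Map1lc3a -1.02 and -0.71, and for Bnip3 -0.89 and -0.62. Bnip3l had 0.52 and 0.66, and Atg2a 1.26 and 1.09. With 2 mice of each sex per genotype, these values do not show that the sexes responded alike.

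A further 59 genes of the pathway, outside the 40, were listed as regulatory factors, fusion factors, other selective receptors, and upstream kinases and transcription factors. Of the 58 tested, 3 fell (beside 8% of all genes) and 11 rose (beside 9.12%), with a median of 0.08 on the log2 scale. The count of 11 dropped to 6 without Nav-Tsc2 replicate 1 and to 7 without control replicate 1 or Nav-Tsc2 replicate 4, and the count of 3 lower became 5 without Nav-Tsc2 replicate 3. Calcoco2 had no counts in any library. Of 14 further core and regulatory factors 1 rose, Sh3glb1, which encodes the Beclin partner endophilin B1 (0.74 ± 0.0915, edgeR adjusted p = 0.00062). Fusion with lysosomes had 3 of 14 higher and 1 lower. The related genes Tecpr1, a tether between autophagosomes and lysosomes, and Tecpr2 went in opposite directions, Tecpr1 rising by 1.07 ± 0.0995 (edgeR adjusted p = 0.000148) and Tecpr2 falling by 0.74 (SE 0.148, adjusted p = 0.0073).

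Of 15 other selective receptors tested, 3 were higher. Wdr81, which works with p62 in clearing aggregates, went from 7.97 ± 1.42 to 18.5 ± 1.72 CPM (1.22 ± 0.174, edgeR adjusted p = 0.00135). Tollip, a receptor for polyglutamine proteins, went from 111 ± 12.9 to 158 ± 4.58 CPM (0.52 ± 0.0956, adjusted p = 0.0049), just past the fold threshold. The upstream kinases and transcription factors had 4 of 15 higher and 1 lower, the lower one being Tsc2 itself (-1.24 ± 0.220, edgeR adjusted p = 0.004). Hif1a, which encodes a subunit of HIF-1, rose from 75.1 ± 8.54 to 129 ± 15.9 CPM (0.78 ± 0.119, adjusted p = 0.00187).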

How the data were processed

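RNA was reverse transcribed and amplified from 100 sorted cells per library (SMARTer Ultra Low kit) and sequenced as single reads of 50 bases. The authors deposited read counts per gene, 1 file per library, which per the labels were aligned to mm10 with STAR and counted with HTSeq. Tool versions, the annotation release and the strand setting are not given in the sources used here. A table of the authors' own DESeq2 comparison, holding fold changes and p-values, was not used.

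For each mouse its 3 libraries were added up, which makes the mouse the replicate (n = 4 per genotype). Genes were filtered with filterByExpr, scaled by TMM and tested with the edgeR 4.0.16 quasi-likelihood test in R 4.3.3. P-values were adjusted over all 17178 genes. The SE was derived from the log2 fold change and its F statistic. Levels are TMM-normalized CPM. Gene positions and lengths come from GENCODE vM21 (GRCm38), to which 47224 of 47643 identifiers matched. The procedure was tested on simulated data. The share of reads with several alignments, left out of the counts, had a median of 38.6% in control and 40.6% in Nav-Tsc2 libraries.

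Replicate numbers go with sex. Deviations of same-numbered mice correlated at 0.184, 0.185, 0.108 and 0.199 (8445 genes). Other same-sex pairs gave 0.0627 to 0.198, so these values do not show pairing by number apart from sex. The main test used no pairing, and a fit with the replicate block was run as an alternative. Alternatives were DESeq2 1.42.0, other scalings, no filter, sex as a covariate, single libraries with a random effect for mouse (limma 3.58.1), equal weights for libraries, each mouse left out, and other fold thresholds. The 40 genes, the lists and the tests were chosen with earlier results of these data known. Full values in every mouse are given for each called member, the ATG8 proteins, the soluble receptors and, in each role, the gene with the highest level per length. Wider pathway genes are named if called, at most 5 per direction by smallest adjusted p. Cntd1, Ankzf1, Gm29253, Mrnip and the pseudogene were named after their values were seen. Some items of the wider lists are not reported here.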

Additional observations from a re-analysis of the deposited data

Results flagged for a closer look

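Among the 80 groups of 4 mice (40 members in 2 genotypes), 1 held a mouse that stood apart from the other 3 by Dixon's test, where chance would give about 4. It was Atg12, which encodes the ubiquitin-like partner of Atg5, in control replicate 4, at 140.7 CPM against 114.5 to 117.5 in the other controls. Atg12 was not called between the genotypes.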

How the results depend on the processing

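The 10 called members kept their direction and their call in all 16 other fits, which were DESeq2, 2 scalings, no filter, the replicate block, sex as a covariate, single libraries, equal weights and each mouse left out. With the replicate block 3 members were lower and 7 higher, as without it, and among wider pathway genes 3 were lower and 8 higher. Phb2, Plekhm1 and Rptor lost their call with it. Leaving out 1 mouse gave 3 to 5 members lower (5 without control replicate 3, which added Atg101 and Atg4c) and 7 to 8 higher. Atg4c was also called lower with upper-quartile scaling, single libraries, equal weights and without Nav-Tsc2 replicate 4. Atg10 was called lower without control replicate 4 or Nav-Tsc2 replicate 1, and Atg9a with DESeq2. Ulk1 was called higher without control replicate 2, and Atg7 without control replicate 3. For the wider pathway it gave 2 to 5 lower (5 without Nav-Tsc2 replicate 3) and 6 to 11 higher (7 without control replicate 1 or Nav-Tsc2 replicate 4, 6 without Nav-Tsc2 replicate 1), and DESeq2 gave 5 lower. Tollip kept its call in 13 of 16 fits. Without a fold threshold 8 members were lower (20%, against 10.2% of all genes) and 9 were higher (22.5%, against 10.8%). At that setting 8 wider pathway genes were lower. At a log2 fold change past 1, members numbered 0 lower and 2 higher (Sqstm1 and Atg2a) and wider pathway genes 1 and 3. Atg101 passed both thresholds without control replicate 3 (-0.51). The sign of Gabarapl1, near 0 throughout, turned to 0.0055 with single libraries and 0.025 with equal weights, and ranged from -0.036 to 0.033 with 1 mouse left out (above 0 without control replicate 3, control replicate 4 or Nav-Tsc2 replicate 1). With principal transcript lengths Map1lc3a was 25.3% of the ATG8 level in controls and 15.0% in Nav-Tsc2. The cause of these changes was not tested. No scaling moved the median of all genes by over 0.1.

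Reads shared with other loci (Atg4a, Bnip3, Bnip3l, Gabarapl2) or with genes on the other strand (Sqstm1, Becn1, Atg9a, Gabarapl1, Bnip3, Atg4d, Uvrag) make those levels uncertain, and 4 mice per genotype limit what a missed threshold can show. Sorting yields are unknown, and RNA levels say nothing of autophagic activity.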
